A study of Mus musculus with 10 samples.

Results

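The Th1-like program was followed through 9 genes: the cytokine gene Ifng, its receptor genes Ifngr1 and Ifngr2, the interleukin 12 receptor genes Il12rb1 and Il12rb2, the signal transducer Stat4, and the transcription factors Tbx21, Runx3 and Eomes. They were taken by gene symbol from the 21556 genes of the count table. All 9 are in the table, and all 9 passed the filter on low counts, which kept 13920 genes. Each of the 9 had at least 5 counts in every library, the lowest being Eomes.

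RNA had been sequenced from regulatory T cells (Tregs, the CD4 T cells that restrain immune responses and express Foxp3), sorted by red fluorescence (RFP) from mice that were 10 weeks old and had received a lymphangiogenic melanoma line. Control mice were MHCIIfl/fl without Cre (Prox1CreNeg), with 3 libraries from lymph node (LN) and 3 from tumor. MHCII-deleted mice were MHCIIΔProx-1 (Prox1CrePos), with 2 libraries from LN and 2 from tumor. In these mice the floxed MHC class II allele is cut by a Cre driven from Prox1, a gene of lymphatic endothelium. Prox1 is also active in some cells outside lymphatic vessels, the deletion cannot be read in sorted T cells, and all groups carry the floxed allele, the RFP reporter and the melanoma. The labels name neither the lymph node nor what drives RFP. They do not say whether libraries of a group came from separate mice, so p-values measure the spread between these libraries.

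Naive CD4 T cells become Th1 cells when interferon gamma and interleukin 12 act on them in turn. Interferon gamma signals through the pair of chains encoded by Ifngr1 and Ifngr2, and interleukin 12 through those encoded by Il12rb1 and Il12rb2, which activate STAT4. Tbx21 encodes T-bet, the lineage factor, which works with Runx3 on Ifng. A fraction of Tregs also carries T-bet, and such cells are known from sites of type 1 inflammation. Eomes encodes a T-box factor related to T-bet that is best known from cytotoxic T cells and natural killer (NK) cells.

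The promoters of 4 genes are shown because Ifng, Il12rb2 and Tbx21 had the largest tumor-to-LN differences of the cytokine, receptor and factor genes in control mice, and because Runx3 has matches to the Runx motif. Each line gives the 250 bases before the RefSeq start site on GRCm38.p6, from 5′ to 3′ on the gene's strand. Capitals mark matches to 1 of 4 motifs.
Ifng, chr10:118440796-118441045 (plus strand): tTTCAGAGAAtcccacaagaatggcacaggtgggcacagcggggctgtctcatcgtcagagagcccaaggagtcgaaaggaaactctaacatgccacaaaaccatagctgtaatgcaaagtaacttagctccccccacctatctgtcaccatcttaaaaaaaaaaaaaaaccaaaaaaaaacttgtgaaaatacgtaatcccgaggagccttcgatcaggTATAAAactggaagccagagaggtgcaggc
Il12rb2, chr6:67376189-67376438 (minus strand): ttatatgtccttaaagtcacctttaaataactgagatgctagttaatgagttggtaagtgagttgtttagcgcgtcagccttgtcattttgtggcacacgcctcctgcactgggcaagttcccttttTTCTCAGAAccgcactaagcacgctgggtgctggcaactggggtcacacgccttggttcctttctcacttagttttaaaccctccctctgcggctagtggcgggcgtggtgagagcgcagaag
Tbx21, chr11:97115332-97115581 (minus strand): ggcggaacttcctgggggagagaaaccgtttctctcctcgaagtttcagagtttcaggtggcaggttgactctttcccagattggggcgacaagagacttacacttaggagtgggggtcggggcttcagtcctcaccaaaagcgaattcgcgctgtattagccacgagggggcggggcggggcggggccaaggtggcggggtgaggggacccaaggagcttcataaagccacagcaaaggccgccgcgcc
Runx3, chr4:135120395-135120644 (plus strand): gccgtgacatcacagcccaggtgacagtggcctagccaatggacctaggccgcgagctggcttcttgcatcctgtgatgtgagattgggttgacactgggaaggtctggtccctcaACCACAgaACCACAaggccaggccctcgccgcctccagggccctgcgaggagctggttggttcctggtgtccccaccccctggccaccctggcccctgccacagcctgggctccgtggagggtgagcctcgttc
Motifs were searched on both strands of windows from 250 bases before to 50 bases after the start. They were the T-box motif AGGTGT, found in 13.7% of 32851 RefSeq windows of that length, the STAT motif TTCNNNGAA (8.3%), the Runx motif TGTGGT (16.8%) and the TATA box TATAAA (13.6%). In Ifng a STAT match begins at the second base of the printed line and a TATA match at position -30, counted from the start site. In Il12rb2 a STAT match begins at -123. Runx3 has 2 Runx matches on the opposite strand, at -134 and -126, in the more upstream of its 2 windows. The window of Tbx21 holds no match to the 4 motifs, nor do those of Stat4, Ifngr1 and Eomes, and Ifngr2 has a T-box match at -141. No 2 motifs overlapped in these windows. A window was matched for 8 of the 9 genes, with Il12rb1 unmatched.

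Each library held 28539329 to 35736175 counts over 12825 to 14703 detected genes, and a count of 0 allows up to 0.0809 to 0.107 CPM (counts after scaling libraries to the same size). Foxp3, the check of the sort, was present in every library, at 644 CPM or more except in tumor of MHCII-deleted mice (342 and 349) and 1 LN library of these mice (580.3). The tumor libraries also held melanoma RNA, and more of it in MHCII-deleted mice. Melanoma markers (9 of 9 tested) summed to 3564 to 7065 CPM in control tumors and reached 14220 and 17770 in MHCII-deleted tumors, against at most 16.2 in LN. Genes shared by T cells (pan-T cell genes, 23 of 24 tested) summed to 16770 to 18500 CPM in the other 3 groups and to 7322 and 8601 in tumor of MHCII-deleted mice. The genes are therefore given on 2 scales: CPM, relative to all RNA of a library (TMM-normalised), and relative to the pan-T cell genes. In bulk RNA, fewer cells of a type and less RNA per cell cannot be told apart.

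**Figure D1:**
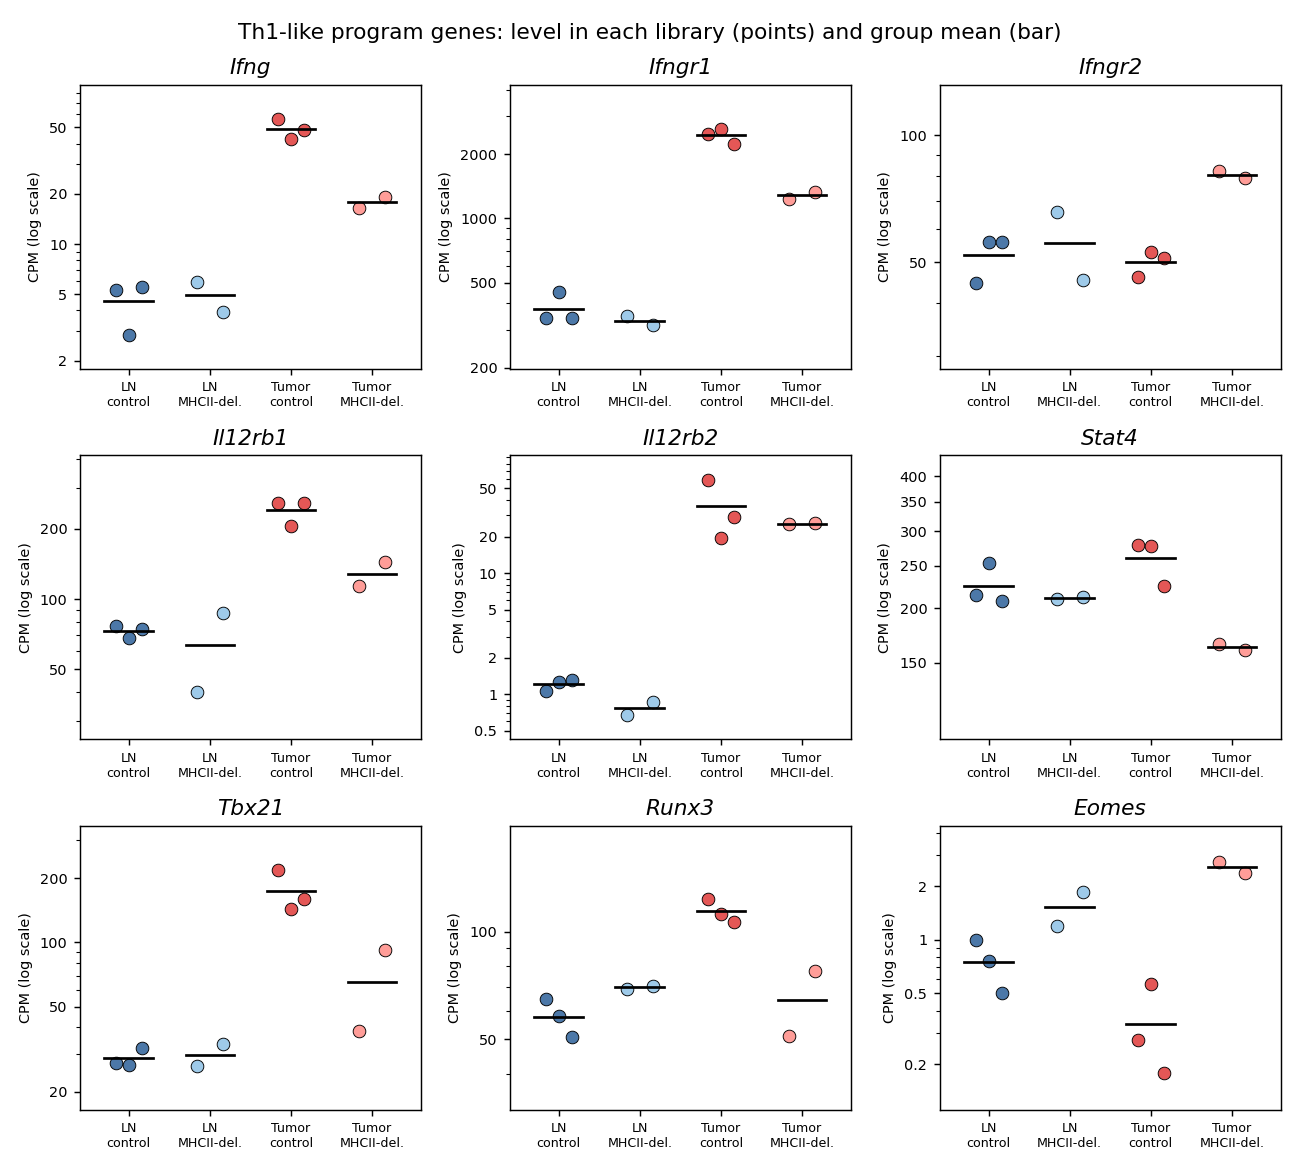
Level of each of the 9 genes in each of the 10 libraries, in CPM on a log axis that differs between panels. Points are libraries (LN control and tumor control, 3 each, LN MHCII-deleted and tumor MHCII-deleted, 2 each) and bars are group means. Ifng, Ifngr1, Il12rb1, Il12rb2 and Tbx21 are higher in every tumor library than in every LN library, and Eomes is at most 2.72 CPM anywhere.

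Compared per kilobase of exon, Ifngr1 was the most abundant of the 9 genes in every group. In LN of control mice its level was 132 ± 22.1 CPM per kb (SD, n = 3), followed by Stat4 at 58.1 ± 6.35, Il12rb1 at 17.9 ± 1.06 and Ifngr2 at 13.9 ± 1.70. Runx3 and Tbx21 came next with 11.6 ± 1.41 and 11.6 ± 1.21 CPM per kb, then Ifng with 3.52 ± 1.14, Il12rb2 with 0.319 ± 0.0343 and Eomes with 0.181 ± 0.0603. The ranges of Ifngr2, Runx3 and Tbx21 overlapped, so their order in LN was not resolved. In tumor of control mice Tbx21 stood second, at 70.0 ± 15.9 CPM per kb (SD, n = 3), but its range overlapped those of Stat4 (67.3 ± 7.96) and Il12rb1 (58.5 ± 7.33). Ifngr1 was at 859 ± 74.2 in these libraries, Ifng at 37.8 ± 5.34, Runx3 at 22.9 ± 1.78, Ifngr2 at 13.3 ± 0.917, Il12rb2 at 9.39 ± 5.37 and Eomes at 0.0813 ± 0.0480. The levels of Il12rb2 and Ifngr2 also overlapped there.

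The question of which Th1-like genes differ between tumor and LN Tregs was asked in control mice first. Of the 9 genes, 6 were higher in tumor and 0 lower, and 3 did not pass the test (Stat4, Ifngr2 and Eomes). Over all 13920 genes tested, 22.8% were higher and 16.1% lower. Differences are log2 fold changes with the standard error (SE) from edgeR's quasi-likelihood test on all 10 libraries, with p adjusted over all tested genes and called under 0.05. The median difference was 1.71 for the 9 genes and 0.08 for all genes. All 6 calls held in each of 16 alternatives on the scale of all RNA (another normalization, filter, tool, model or GC correction, or 1 library left out). Scaled to pan-T cell genes, the same 6 were higher and 0 lower, beside 23.3% and 11.6% of all genes.

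Ifng, the cytokine of the program, was at 5.28, 2.86 and 5.51 CPM in LN and at 56.2, 42.5 and 48.0 in tumor of control mice. The groups did not overlap, and the lowest tumor library exceeded the highest LN library several times over. The difference was 3.43 ± 0.29 (SE, edgeR adjusted p = 1.66e-05), a 10.8-fold higher level. Of the exon bases of Ifng, 336 are shared with a predicted gene on the same strand that has no row in the table.

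Among the interferon gamma receptor genes the chains moved apart. Ifngr1, the ligand-binding chain, rose from 343, 449.9 and 339 CPM in LN to 2480, 2635 and 2218 in tumor, a difference of 2.70 ± 0.13 (edgeR adjusted p = 4.67e-07). Ifngr2, the signalling chain, was at 44.8, 55.8 and 56.0 CPM in LN and at 46.2, 52.8 and 51.1 in tumor. These ranges overlapped throughout, and the difference was -0.06 ± 0.15 (edgeR adjusted p = 0.787), or 0.01 on the pan-T scale.

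Il12rb2, the interleukin 12 receptor chain that is induced during Th1 differentiation, was nearly silent in LN, at 1.06, 1.27 and 1.30 CPM, and stood at 58.5, 19.3 and 29.1 in tumor. It had the largest difference of the 9 genes, 4.88 ± 0.41 (edgeR adjusted p = 1.64e-05). Its exons share 1519 bases with Serbp1 on the opposite strand, and whether the counting used strand is not given in the sources used here. Serbp1 itself was at 346 to 484 CPM in all groups, while Il12rb2 in LN did not exceed 1.30 CPM. Il12rb1, the chain shared with the interleukin 23 receptor, was at 76.8, 68.4 and 74.6 CPM in LN and at 258, 206 and 258 in tumor, without overlap. Its difference was 1.71 ± 0.24 (edgeR adjusted p = 0.00047).

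Stat4, the transducer of the interleukin 12 signal, was at 215, 253 and 207 CPM in LN and at 279, 278 and 225 in tumor. The ranges overlapped and the difference was 0.21 ± 0.11 (edgeR adjusted p = 0.156). On leaving out tumor library 3 it was 0.31 (adjusted p = 0.048), and offsets for transcript GC content gave 0.29 (adjusted p = 0.036). Of the 3872 exon bases of Stat4, 1033 are shared with a predicted gene on the same strand that is not among the counted genes.

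Of the factors, Tbx21 was at 27.4, 26.6 and 32.2 CPM in LN and at 219, 144 and 159.5 in tumor of control mice. The difference was 2.60 ± 0.30 (edgeR adjusted p = 0.000145), a 6.06-fold higher level with no overlap. Runx3, the partner of T-bet on Ifng, was at 64.8, 58.1 and 50.6 CPM in LN and at 124, 112.5 and 106.5 in tumor, again without overlap, with a difference of 0.98 ± 0.16 (edgeR adjusted p = 0.00104). Tbx21, Il12rb1, Runx3 and Eomes lie in the top 20% of tested genes by GC content (56.2% to 59.6% GC), and GC-rich genes stood higher against GC-poor ones in the tumor libraries (0.10 to 0.43 log2) than in the LN libraries (-0.28 to -0.14). With GC offsets, an alternative chosen after seeing the data, the differences of Tbx21 and Runx3 were 2.16 and 0.52, both still called. Eomes was scarcely expressed: 33, 28 and 15 counts in LN and 9, 17 and 5 in tumor, or at most 1.00 CPM. Its difference of -1.15 ± 0.72 did not pass the test (edgeR adjusted p = 0.232). The exons of Eomes share 118 bases with a predicted gene on the opposite strand that is not among the counted genes.

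**Figure D2:**
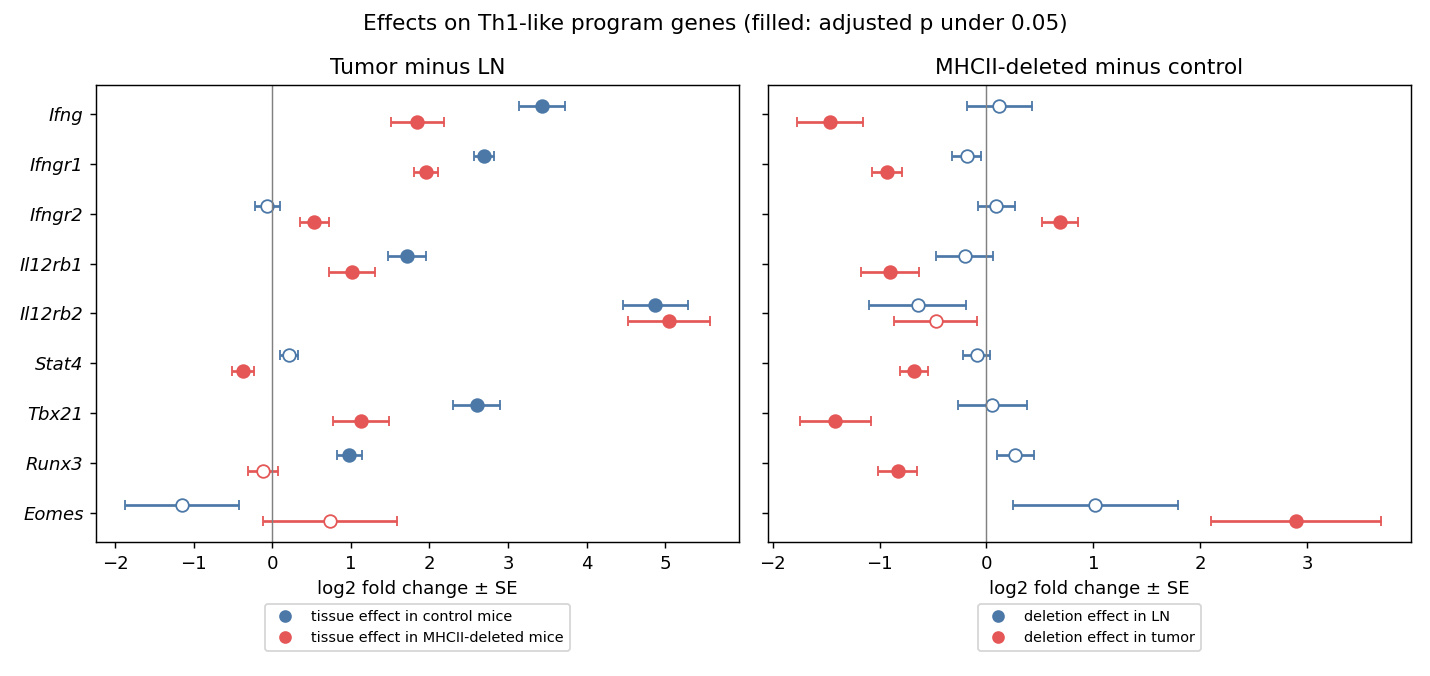
Log2 fold change with its SE for each gene, for tumor minus LN (left, control and MHCII-deleted mice) and for MHCII-deleted minus control (right, LN and tumor), relative to all RNA. Filled points passed the adjusted p threshold of 0.05. In the right panel 6 genes lie below 0 and 2 above 0 in tumor among the filled points, and no point is filled in LN.

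In MHCII-deleted mice the same comparison of tumor with LN gave 6 genes higher (Ifng, Ifngr1, Ifngr2, Il12rb1, Il12rb2 and Tbx21) and 1 lower (Stat4). Over all genes 24.3% were higher and 20.1% lower. The median of the 9 genes was 1.02 against 0.07 for all genes. With pan-T scaling 8 were higher and 0 lower, beside 63.9% and 2.39% of all genes. That scale moved the median of all genes from 0.07 to 1.25 and turned Stat4 from -0.37 to 0.82 and Runx3 from -0.12 to 1.05. Only Eomes remained without a call on it.

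The differences of Il12rb2, Ifngr1 and Ifng held in all 16 alternatives on the scale of all RNA. Il12rb2 was at 0.682 and 0.869 CPM in LN and at 25.2 and 26.1 in tumor of MHCII-deleted mice, a difference of 5.05 ± 0.52 (edgeR adjusted p = 4.59e-05). Ifngr1 was at 347 and 316 CPM in LN and at 1237 and 1329 in tumor, with 1.95 ± 0.15 (edgeR adjusted p = 9.13e-06). Ifng went from 5.94 and 3.93 CPM to 16.3 and 19.2, with 1.85 ± 0.34 (edgeR adjusted p = 0.00162). For these 3 genes the tumor and LN libraries were far apart in both genotypes.

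For Tbx21, Il12rb1, Ifngr2 and Stat4 the call was lost in some alternatives, and Runx3 and Eomes had no call in the main fit. Tbx21 was at 26.4 and 33.4 CPM in LN and at 38.5 and 92.0 in tumor, so that library 1 of these tumors lay close to the LN level. Its difference of 1.13 ± 0.35 (edgeR adjusted p = 0.0265) lost its call without LN library 1 (0.97), LN library 2 (1.30) or tumor library 2 (0.37, adjusted p = 0.28) of MHCII-deleted mice, with GC offsets (0.73, adjusted p = 0.101) and with only the groups compared (1.14, adjusted p = 0.109). Without tumor library 1 it was 1.62. Il12rb1 was at 40.2 and 87.0 CPM in LN and at 114 and 143.5 in tumor, with 1.02 ± 0.29 (edgeR adjusted p = 0.0183). That call was lost without LN library 1 (0.56) or tumor library 2 (0.84) of MHCII-deleted mice and with only the groups compared (1.03, adjusted p = 0.111), and the value was 1.68 without LN library 2.

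Ifngr2 was at 65.8 and 45.4 CPM in LN and at 82.3 and 79.1 in tumor, with 0.54 ± 0.19 (edgeR adjusted p = 0.0411), and the call remained in 6 of 16 alternatives. It was lost without tumor library 1 (0.51) or 2 (0.56) or LN library 2 (0.29) of MHCII-deleted mice, and without libraries 2 or 3 of either control group (0.53 to 0.54). Stat4 was at 210 and 212 CPM in LN and at 165.5 and 160.4 in tumor, with -0.37 ± 0.14 (edgeR adjusted p = 0.0482). Its call remained in 3 of 16 alternatives. It was lost without any 1 of the 10 libraries other than LN library 2 and tumor library 3 of control mice, with values of -0.40 to -0.35. Runx3, at 69.0 and 70.7 CPM in LN and at 51.0 and 77.7 in tumor, did not pass (-0.12 ± 0.19, edgeR adjusted p = 0.647). It was at 0.15 without tumor library 1 and at -0.52 (adjusted p = 0.0409) with GC offsets. Eomes had 42 and 58 counts in LN and 81 and 83 in tumor, with 0.74 ± 0.85 (edgeR adjusted p = 0.508).

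Tumor Tregs were then compared between the genotypes. The deletion acts wherever Prox1 drives Cre, so this comparison does not separate lymphatic vessels of the tumor from those of other sites. Relative to all RNA of a library, 6 of the 9 genes were lower in tumor of MHCII-deleted mice (Ifng, Ifngr1, Il12rb1, Stat4, Tbx21 and Runx3) and 2 were higher (Ifngr2 and Eomes), while Il12rb2 did not pass the test. Over all genes 13.7% were lower and 15.0% higher. The median of the 9 genes was -0.83, against 0.10 for all genes. Relative to pan-T cell genes, 0 of the 9 were lower and 3 were higher (Stat4, Ifngr2 and Eomes), beside 0.330% lower and 67.2% higher of all genes. On this scale the median of the 9 genes was 0.27 and that of all genes 1.22. The 6 lower calls thus hold relative to whole RNA only, and in these libraries pan-T cell genes stood at 7322 and 8601 CPM against 16770 to 17530 in control tumors.

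Ifng was at 56.2, 42.5 and 48.0 CPM in tumor of control mice and at 16.3 and 19.2 in that of MHCII-deleted mice, without overlap. The difference was -1.46 ± 0.31 (edgeR adjusted p = 0.00721), and -0.35 ± 0.31 (adjusted p = 0.331) on the pan-T scale. Per 1000 CPM of pan-T cell genes, Ifng stood at 2.85 ± 0.373 (SD, n = 3) and 2.23 ± 0.00283 (SD, n = 2) in tumor, against 0.255 ± 0.0869 and 0.273 ± 0.0743 in LN of the respective genotypes. On that scale the Ifng level remained far above LN in both genotypes.

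The receptor chains again differed. Ifngr1 was lower relative to all RNA in MHCII-deleted mice, at 1237 and 1329 CPM against 2218 to 2635, with -0.93 ± 0.14 (edgeR adjusted p = 0.00122). On the pan-T scale its difference was 0.19 ± 0.12 (adjusted p = 0.197). Ifngr2 was higher in MHCII-deleted mice on both scales. It was at 82.3 and 79.1 CPM against 46.2 to 52.8, with 0.69 ± 0.17 (edgeR adjusted p = 0.0142). On the pan-T scale it reached 1.81 ± 0.18 (adjusted p = 2.83e-05), from 2.92 ± 0.244 (SD, n = 3) to 10.2 ± 1.44 (SD, n = 2) per 1000 pan-T CPM. That scale moved the median of all genes from 0.10 to 1.22 in this comparison, with 67.2% of all genes called higher. A gene already higher relative to all RNA is raised further by it, so the second call adds no independent support. Ifngr2 is expressed in many cell types, and melanoma markers summed to 3564 to 7065 CPM in the control tumors and to 14220 and 17770 in the others; their part in this result was not tested. Without library 1 of the MHCII-deleted tumors the Ifngr2 call was lost on the scale of all RNA (0.66, adjusted p = 0.0607).

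Il12rb1 was at 114 and 143.5 CPM against 206 to 258 in control tumors, with -0.90 ± 0.27 (edgeR adjusted p = 0.0334). This call remained in 8 of 16 alternatives on the scale of all RNA. It was lost on leaving out tumor library 1 or 2 of MHCII-deleted mice, tumor libraries 1 or 3 of control mice or any 1 LN library of control mice (-1.08 to -0.74), and turned to 0.20 on the pan-T scale. Il12rb2, at 25.2 and 26.1 CPM, lay within the range of the control tumors (19.3 to 58.5), with -0.47 ± 0.39 (edgeR adjusted p = 0.387). Its sign depended on library 1 of the control tumors, without which it was 0.09, and on the pan-T scale it was 0.65 ± 0.38 (adjusted p = 0.149). Stat4 was at 165.5 and 160.4 CPM against 225 to 279, with -0.68 ± 0.13 (edgeR adjusted p = 0.00395). It was the gene of the 9 whose call changed direction between the scales, with 0.45 ± 0.13 (adjusted p = 0.0119) on the pan-T scale.

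Tbx21 fell from 219, 144 and 159.5 CPM to 38.5 and 92.0, with -1.42 ± 0.33 (edgeR adjusted p = 0.012). The MHCII-deleted libraries lay far apart, and the difference was -0.92 without library 1 and -2.18 without library 2 of these tumors, both called. With only the groups compared it missed the threshold (-1.49, adjusted p = 0.0513), and on the pan-T scale it was -0.34 ± 0.28 (adjusted p = 0.307). Runx3 was at 51.0 and 77.7 CPM against 106.5 to 124, with -0.83 ± 0.18 (edgeR adjusted p = 0.00833). The Runx3 value was -0.56 without tumor library 1 of MHCII-deleted mice, and 0.27 on the pan-T scale. In both factors library 1 was the lower of the MHCII-deleted tumor libraries. Eomes was higher in MHCII-deleted mice, with 81 and 83 counts against 9, 17 and 5, or 2.72 and 2.37 CPM against 0.178 to 0.561. Its difference was 2.90 ± 0.80 (edgeR adjusted p = 0.0226), and 4.03 ± 0.80 (adjusted p = 0.0013) on the pan-T scale. With 67.2% of all genes called higher on the pan-T scale, that second call adds no independent support. The Eomes groups did not overlap, but the call on the scale of all RNA was lost without tumor library 1 of control mice (2.77), tumor library 1 (2.80) or 2 (3.00) of MHCII-deleted mice, and with only the groups compared (2.83).

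**Figure D3:**
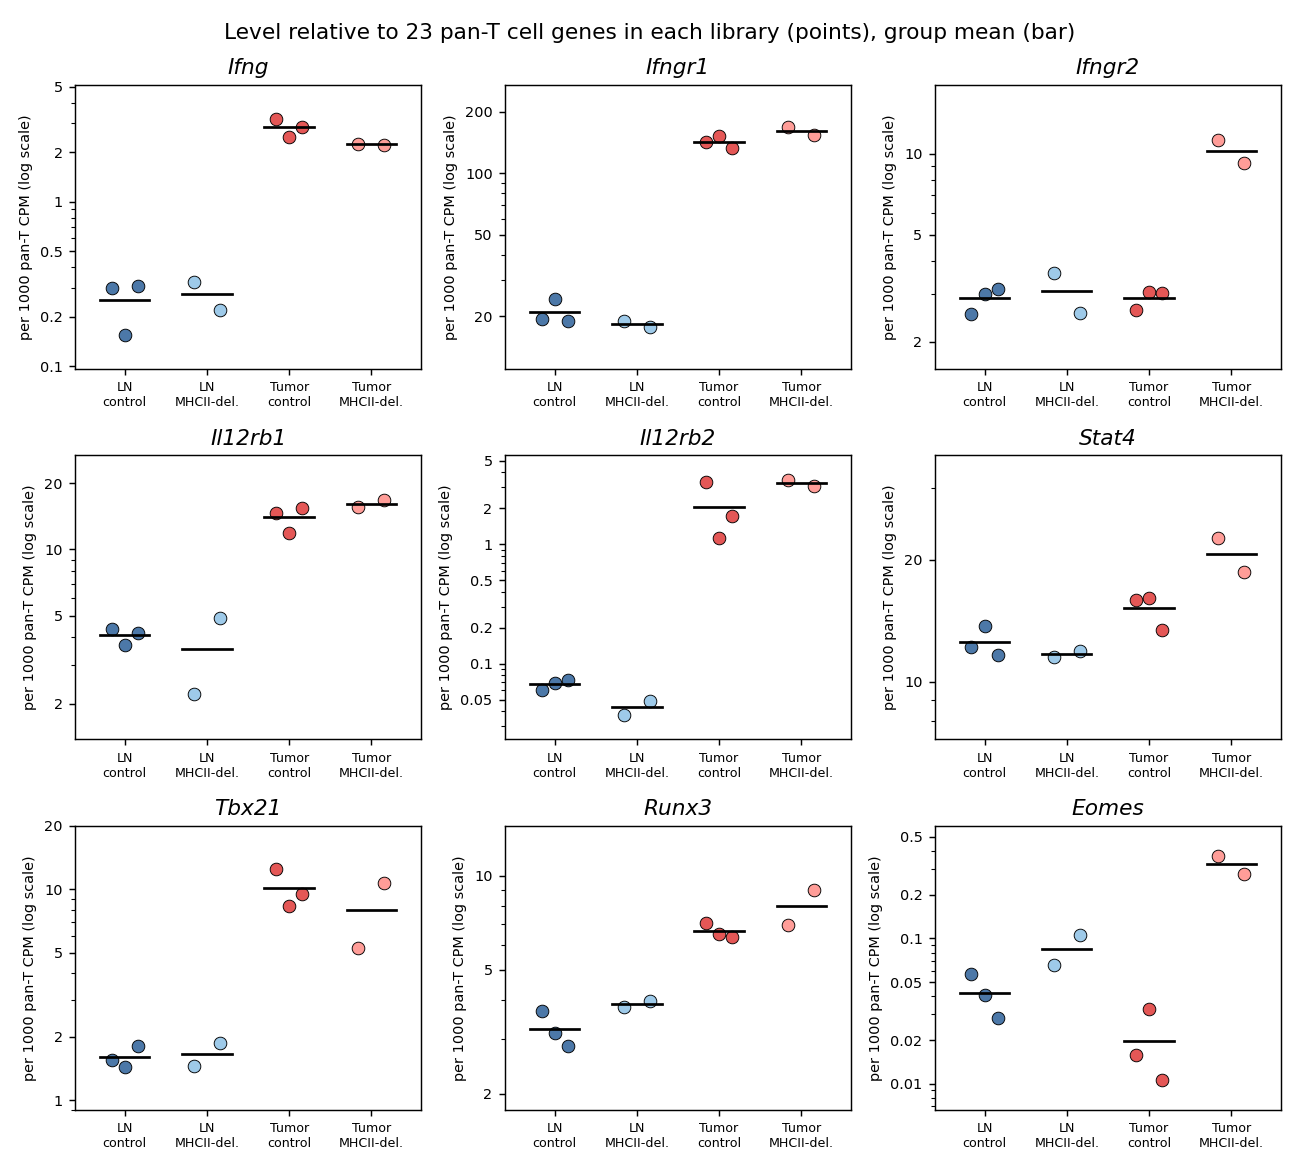
Level of each gene per 1000 CPM of the 23 pan-T cell genes, in each library, on log axes that differ between panels. Points are libraries and bars are group means. Ifngr1 has tumor group means of 142 in control and 162 in MHCII-deleted mice on this scale, while Ifngr2 and Eomes are higher in every MHCII-deleted tumor library than in every control tumor library.

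Because Eomes, Tbx21, Runx3 and Ifng are also expressed by CD8 T cells and NK cells, markers of those cells were read beside them. Of 12 such markers 9 were tested. They summed to 60.1 to 69.3 CPM in LN and 75.0 to 107 in tumor of control mice, against 52.4 and 64.0 in LN and 49.0 and 67.1 in tumor of MHCII-deleted mice. Of the 9 markers, 6 (66.7%) were higher in control tumors than in LN of these mice and 1 (11.1%) lower, beside 22.8% and 16.1% of all genes. The median difference was 2.70 against 0.08 for all genes. In MHCII-deleted mice 1 (11.1%) was higher in tumor than in LN and 2 (22.2%) were lower, beside 24.3% and 20.1% of all genes. Between the genotypes in tumor 0 were higher and 1 (11.1%) lower, beside 15.0% and 13.7% of all genes. Cd8a, the alpha chain of CD8, was at 0 to 1.54 CPM in LN and 2.75 to 14.6 in tumor of control mice, and did not exceed 1.51 in MHCII-deleted mice. Cd8b1, the beta chain, was at 20.4 to 30.7 CPM in LN and at 24.5 to 27.5 and 10.6 to 14.1 in tumor of control and MHCII-deleted mice. Ncr1, an NK cell receptor, was at 0 in all 5 LN libraries and at most 0.916 CPM in tumor. Klrb1c, another NK cell receptor, was highest in LN of control mice, at 16.7 to 18.4 CPM, and at most 1.37 in tumor. Of the cytotoxic granule genes, Prf1 (perforin) rose with 1.19 in control mice, Gzma with 3.07 and Gzmk with 4.22, and Fcer1g, the Fc receptor gamma chain, with 2.54. In MHCII-deleted mice Gzma (1.92) was the marker higher in tumor. In CPM the sum was lower in MHCII-deleted than in control tumors, as were Tbx21, Runx3 and Ifng. Relative to all RNA, 22 of the 23 pan-T cell genes were also called lower there. Within each tumor group, the library with the lowest sum had the highest Tbx21, Runx3 and Ifng. These were library 1 of control mice (75.0 CPM) and library 2 of MHCII-deleted mice (49.0 CPM). An order of 3 and of 2 libraries cannot test the part of these cells. In MHCII-deleted tumors Prf1 alone was at 23.6 to 44.7 CPM, while Cd8b1 was at 10.6 to 14.1. Per 1000 CPM of pan-T cell genes the sum was at 2.94 to 3.89 in LN, at 4.28 to 6.41 in control tumors and at 5.70 and 9.16 in MHCII-deleted tumors. Eomes was highest in the MHCII-deleted tumors, whose marker sum was below that of control tumors in CPM and overlapped with it relative to pan-T cell genes. The part of these cells in the results for the 4 genes was not tested. Myeloid markers (11 of 11 tested) summed to 24.2 to 65.3 CPM over all libraries and B cell markers (6 of 6) to 5.78 to 130. Per 1000 CPM of pan-T cell genes, myeloid markers stood at 1.4 to 1.86 in control tumors and at 4.03 and 5.11 in MHCII-deleted tumors. In LN they stood at 1.7 to 2.31 and at 2.2 and 3.58 in the respective genotypes. The part of myeloid cells in the results was not tested. Stromal and endothelial markers (9 of 9) summed to 182 to 221 CPM in LN, to 527.5 to 4222 in control tumors and to 345 and 878.5 in MHCII-deleted tumors. Of the lymphatic endothelial markers among them, Lyve1 and Flt4 went the other way between the tumor groups, while Prox1 was not called. Prox1 was at 3.02 to 5.08 CPM in control tumors and 1.61 and 7.41 in MHCII-deleted tumors (0.09, edgeR adjusted p = 0.941). Lyve1, a hyaluronan receptor, was at 1.16 to 5.47 CPM in control tumors and at 2.72 and 83.3 in MHCII-deleted tumors, with 3.92 (edgeR adjusted p = 0.0359), and Flt4, a receptor for lymphatic growth factors, at 0.264 to 4.31 and at 10.6 and 60.8, with 3.79 (edgeR adjusted p = 0.0171). Without tumor library 2 of MHCII-deleted mice neither was called (-0.06 and 2.04). Both calls were also lost with the replicate block (2.86 and 4.29) and with only the groups compared (3.84 and 3.71). Lyve1 further lost its call without the filter, with DESeq2, and without any 1 LN library or tumor libraries 2 or 3 of control mice. The part of stromal and endothelial cells in the tumor results was not tested.

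In LN no gene of the 9 differed between the genotypes by edgeR (0 higher and 0 lower), beside 1.07% higher and 0.0359% lower over all genes, and 0 of the 9 reached an unadjusted p under 0.05. DESeq2 and the pan-T scale also called 0 of the 9, the latter beside 2.66% and 0.0575% of all genes. The smallest unadjusted p was 0.155, for Runx3, with 0.27 ± 0.18. Ifng had 0.12 ± 0.30, Tbx21 0.06 ± 0.32, Stat4 -0.09 ± 0.12, Ifngr1 -0.19 ± 0.13 and Ifngr2 0.09 ± 0.17. The widest errors were those of Eomes, at 1.02 ± 0.77, and Il12rb2, at -0.64 ± 0.45, the genes with the fewest counts. Il12rb1 had -0.21 ± 0.27, with MHCII-deleted libraries at 40.2 and 87.0 CPM on either side of the control range of 68.4 to 76.8. A missed threshold does not show that these levels were alike.

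Whether the tissue difference itself changed with the deletion was tested as an interaction, which equals the deletion effect in tumor minus that in LN. Of the 9 genes, 3 had a smaller tumor-to-LN difference in MHCII-deleted mice and 0 a larger one, beside 6.57% and 4.14% of all genes. They were Ifng (-1.58 ± 0.43, edgeR adjusted p = 0.0433), Ifngr1 (-0.74 ± 0.19, adjusted p = 0.0347) and Runx3 (-1.10 ± 0.25, adjusted p = 0.0239). Of the 23 pan-T cell genes, 22 (95.7%) were also called smaller on this scale. Tbx21, with -1.47 ± 0.45, missed the threshold (edgeR adjusted p = 0.0681) and passed it without tumor library 2 of MHCII-deleted mice (-2.23) and with DESeq2 (-1.40). Stat4 had -0.58 ± 0.18 (edgeR adjusted p = 0.0619), passing without LN library 2 (-0.68) or tumor library 3 (-0.68) of control mice, with DESeq2 (-0.52) and with GC offsets (-0.60). Il12rb1 had -0.70 ± 0.38, passing without LN library 1 of MHCII-deleted mice (-1.15). Il12rb2 had 0.17 ± 0.58, Ifngr2 0.60 ± 0.24 and Eomes 1.88 ± 1.12, none of them past the threshold. On the pan-T scale 0 genes were lower and 3 higher (Stat4 0.54, Ifngr2 1.72 and Eomes 3.01), beside 0.144% and 46.0% of all genes, and Ifng, Ifngr1 and Runx3 stood at -0.46, 0.37 and 0.00. The groups in these comparisons are shared, so the tissue and deletion effects are not independent of each other.

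The 3 interaction calls on the scale of all RNA were near the threshold. Ifng lost its call without any 1 library other than tumor library 2 of MHCII-deleted mice (-1.85 to -1.25). Ifngr1 lost it without LN libraries 1 or 3 or tumor libraries 1 or 2 of control mice and without LN libraries 1 or 2 or tumor library 1 of MHCII-deleted mice (-0.81 to -0.67). Runx3 lost it without LN libraries 2 or 3 of control mice and LN libraries 1 or 2 or tumor library 1 of MHCII-deleted mice (-1.12 to -0.83).

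Around these 9 genes, a list of 41 others of the Th1, interleukin 12 and interferon gamma pathways was counted, of which 38 were tested. Il12a, Il12b and Il27, which encode cytokine subunits made mainly by myeloid cells, were not tested, with at most 6, 3 and 5 counts in any library. In control mice 21 of the 38 (55.3%) were higher in tumor and 3 (7.89%) lower, beside 22.8% and 16.1% of all genes, with a median of 0.94 against 0.08 for all genes. Receptors had 6 of 8 higher and 1 lower, cytokines and ligands 4 of 8 and 1, feedback and target genes 4 of 6 and 0, transcription factors 5 of 11 and 0, and kinases and signal transducers 2 of 5 and 1. Bhlhe40, a factor that sustains cytokine production in Th1 cells, stood at 137 ± 2.10 CPM in LN and rose to 2798 ± 197 in tumor (SD, n = 3 each), with 4.36 ± 0.11 (edgeR adjusted p = 2.6e-08). The factor Id2 rose with 2.90 ± 0.14, the chemokine Ccl3 with 4.97 ± 0.26 and the granule protein gene Nkg7 with 3.74 ± 0.22. The 3 lower genes were Il6st, the signal chain shared by interleukin 6 family and interleukin 27 receptors, with -1.82 ± 0.11, the lymphotoxin gene Lta with -1.17 ± 0.24 and the kinase Jak1 with -0.37 ± 0.11 (edgeR adjusted p = 0.0252, and 0.0641 on the pan-T scale).

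In MHCII-deleted mice 13 of the 38 (34.2%) were higher in tumor than in LN and 10 (26.3%) lower, beside 24.3% and 20.1% of all genes, with a median of 0.40 against 0.07. On the pan-T scale 25 (65.8%) were higher and 2 (5.26%) lower, beside 63.9% and 2.39% of all genes, so the share higher was close to that of all genes. With LN library 2 of these mice left out, fewer of the 38 were lower. The number over all genes also varied with the library left out. Bhlhe40 (3.74 ± 0.13), Ccl3 (5.42 ± 0.33), Id2 (2.29 ± 0.16) and the chemokine receptor Cxcr6 (3.32 ± 0.25) rose. Il6st (-1.91 ± 0.14), the interleukin 27 receptor chain Il27ra (-1.40 ± 0.13), Lta (-2.53 ± 0.31) and Jak1 (-1.08 ± 0.14) were lower. Il6st and Lta were also lower on the pan-T scale, with -0.73 and -1.36, while Il27ra and Jak1 stood at -0.22 and 0.10 without a call.

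Between the genotypes in tumor, 22 of the 38 (57.9%) were lower in MHCII-deleted mice and 1 (2.63%) was higher, beside 13.7% and 15.0% of all genes, with a median of -0.83 against 0.10 for all genes. Scaled to pan-T cell genes, 0 were lower and 9 (23.7%) higher, beside 0.330% and 67.2% of all genes, with a median of 0.27 against 1.22. Receptors had 7 of 8 lower on the scale of all RNA, kinases and signal transducers 4 of 5, cytokines and ligands 4 of 8, transcription factors 5 of 11 and feedback and target genes 2 of 6. With any 1 library left out, fewer of the 38 were called lower, and fewer of all genes as well. Il27ra stood at 431 ± 50.6 CPM (SD, n = 3) in control tumors and fell to 173 ± 23.5 (SD, n = 2), with -1.31 ± 0.12 (edgeR adjusted p = 0.000199). Gata3, the Th2 lineage factor, had -1.29 ± 0.17, Ebi3, a subunit of interleukins 27 and 35, -1.51 ± 0.20, and Id2 -1.08 ± 0.15. These 4 stood at -0.21, -0.17, -0.37 and 0.05 on the pan-T scale, none of them called. Zeb2, a factor of terminally differentiated T cells that melanocytes also express, was the gene that rose, from 17.7 ± 1.96 CPM in control tumors (SD, n = 3) to 50.4 ± 12.5 (SD, n = 2), with 1.51 ± 0.46 (edgeR adjusted p = 0.0348). Without LN library 1 or any 1 tumor library of control mice 0 of the 38 rose. The melanoma markers moved the same way as Zeb2, and their part in the rise of Zeb2 was not tested.

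In LN 0 of the 38 were higher in MHCII-deleted mice and 1 (2.63%) was lower, beside 1.07% and 0.0359% of all genes. It was Cxcr6, at 32.3 ± 2.31 CPM (SD, n = 2) against 73.8 ± 16.9 (SD, n = 3), with -1.19 ± 0.22 (edgeR adjusted p = 0.046). With any 1 LN library left out, or tumor library 2 or 3 of control mice, 0 of the 38 were lower, and 2 were lower without tumor library 1 or 2 of MHCII-deleted mice. DESeq2 called 6 lower. The shares of all genes given here are those of edgeR, so that count cannot be set beside them. In the interaction 9 of the 38 (23.7%) had a smaller tumor-to-LN difference in MHCII-deleted mice and 0 a larger one, beside 6.57% and 4.14% of all genes. Of the 23 pan-T cell genes, 22 (95.7%) had a smaller one on the same scale. The count of 9 fell without any 1 LN library or tumor library 1 of control mice, or without LN library 2 or tumor library 1 of MHCII-deleted mice. Without LN library 3 of control mice 1 had a larger difference. The numbers over all genes also rose or fell with the library left out, so these changes are not particular to the list. Those with the smallest p were Il27ra (-1.22 ± 0.17), the Runx family factor Runx1 (-1.13 ± 0.19), Gata3 (-1.23 ± 0.23) and Socs1, a feedback inhibitor of cytokine signalling, at -2.21 ± 0.51 (edgeR adjusted p = 0.0263). With pan-T scaling 11 of the 38 (28.9%) were higher and 0 lower, beside 46.0% and 0.144% of all genes, with Il27ra, Runx1, Gata3 and Socs1 at -0.11, -0.01, -0.11 and -1.11, none called.

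**Figure D4:**
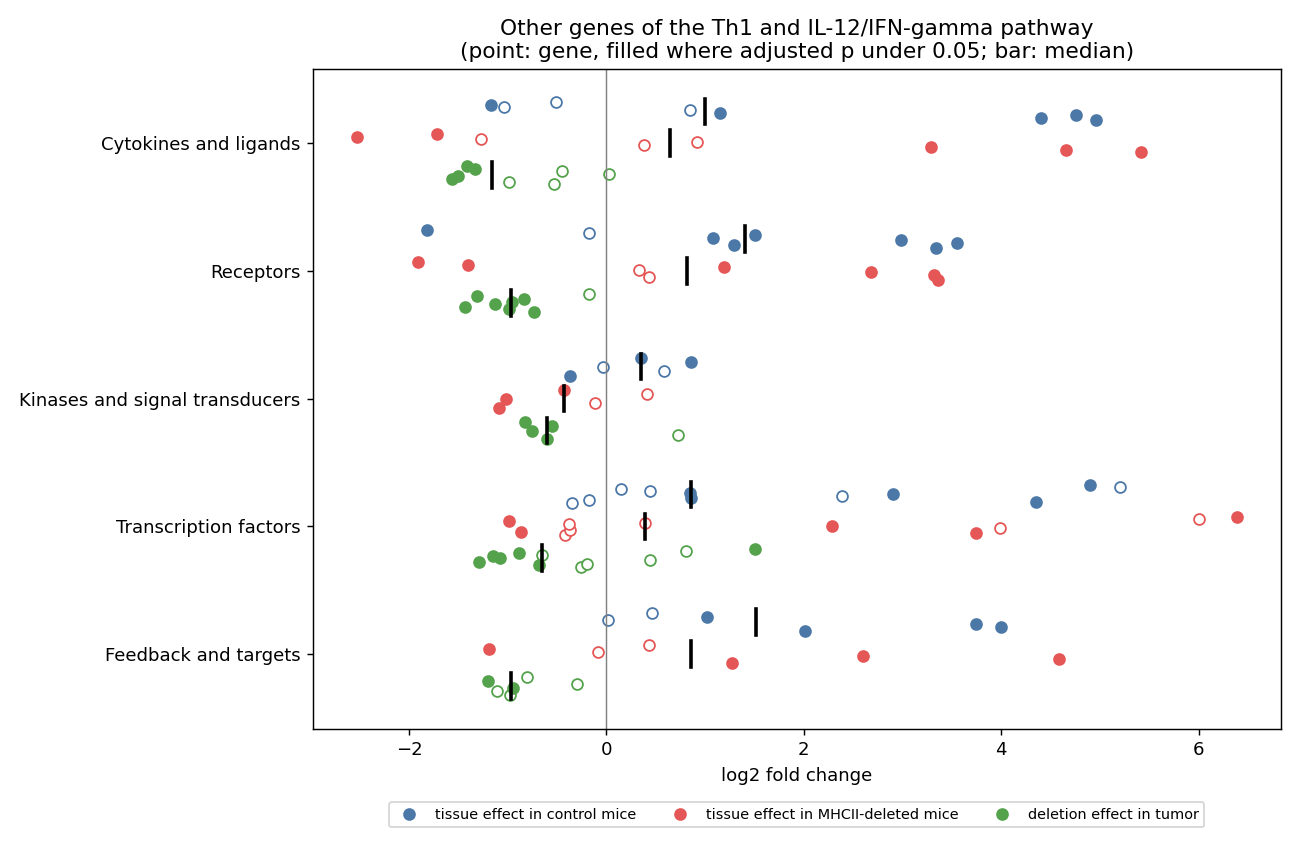
Log2 fold change, relative to all RNA, of the 38 tested genes of the pathway list in 5 roles, for tumor minus LN in control mice (blue) and MHCII-deleted mice (red) and for MHCII-deleted minus control in tumor (green). Points are genes, filled where adjusted p was under 0.05, and bars are medians. In green 22 filled points lie below 0 and 1, Zeb2, above.

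The genes whose levels across the 10 libraries were most like those of Tbx21 were Xcr1, a chemokine receptor (Pearson r = 0.984 of log2 CPM), Agpat4 (0.982), Tob2 (0.978), Zc3hav1 (0.978) and Syngr2 (0.975). Xcr1 followed the same order of groups at a lower level, with 1.8 ± 0.438 and 13.4 ± 2.13 CPM in LN and tumor of control mice (SD, n = 3) and 2.17 ± 0.340 and 4.37 ± 1.67 in those of MHCII-deleted mice (SD, n = 2). Most like Ifng were Uap1 (r = 0.988), Ehd1 (0.986), Kit (0.983), Fam110a (0.983) and Bcl2l11 (0.981). Fam110a rose from 38.4 ± 0.995 CPM in LN to 407 ± 35.3 in tumor of control mice (SD, n = 3) and from 35.6 ± 0.00707 to 142 ± 28.0 in MHCII-deleted mice (SD, n = 2). The 10 libraries share their tissue, genotype and RNA content, so these correlations describe likeness across 4 groups only.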

How the data were processed

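The values deposited by the authors are raw read counts for Ensembl genes, as whole numbers in 1 column per library, without normalization. Per the labels' protocols, 1 ng of RNA was amplified with the SMARTer Ultra Low kit, libraries were prepared with Nextera XT, and single reads had 50 bases. Per the submitters' processing notes, CASAVA 1.8.2, STAR 2.4, featureCounts 1.4.6 and GRCm38 were used; the annotation release, strand setting and filters are not given in the sources used here. Symbols, positions and exon lengths came from GENCODE M21 (GRCm38) and promoters from RefSeq (GRCm38.p6).

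Counts were tested in R 4.3.3 with edgeR 4.0.16: filterByExpr on the 4 groups (minimum count 10), TMM, a robust quasi-likelihood fit of 4 group means to all 10 libraries (6 residual degrees of freedom), and Benjamini-Hochberg adjustment over 13920 genes. The SE is the log2 fold change divided by the square root of F. On the pan-T scale, library sizes were set by 23 pan-T cell genes. Correlations were taken over log2 CPM (prior count 2). A floor is 3 counts, and floors cover counting error only, since reads carry no molecular identifiers. Alternatives were RLE size factors, no filter, pan-T scaling, a replicate block, only the groups compared, DESeq2 1.42.0, each library left out and, chosen after seeing the data, GC offsets.

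The 9 genes and all lists were chosen with earlier results of these data known. The rule for naming takes the 9 genes, up to 4 called pathway genes of smallest p in each direction per comparison, the 5 genes most correlated with Tbx21 and with Ifng, 4 markers of CD8 T and NK cells and Foxp3. The other called markers of CD8 T and NK cells, and Lyve1, Flt4 and Prox1 as a marker, were named after their values had been seen. Of the correlated genes, the 2 whose levels are printed were picked after their values had been seen.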

Additional observations from a re-analysis of the deposited data

Results flagged for a closer look

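The deletion effect differed between tumor and LN for 3 of the 9 genes by the interaction test of edgeR, relative to all RNA. All 3 were lower, beside 6.57% lower and 4.14% higher of all genes. The 3 calls were near the threshold, and each was lost in several runs with 1 library left out. For Ifng the deletion effect in tumor minus that in LN was -1.58 on the log2 scale, from -1.46 in tumor and 0.12 in LN. For Ifngr1 it was -0.74, from -0.93 and -0.19, and for Runx3 -1.10, from -0.83 and 0.27. On the pan-T scale the same differences were -0.46, 0.37 and 0.00, none called. The summed level of pan-T cell genes was 7961 ± 905 CPM (SD, n = 2) in MHCII-deleted tumors and 17180 ± 384 (SD, n = 3) in control tumors.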

How the results depend on the processing

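The 6 calls between tumor and LN in control mice held in every alternative run. In MHCII-deleted mice the number higher was 6, and 8 with pan-T scaling, 4 with GC offsets, 3 with only the groups compared and 3 to 6 with 1 library left out. The number lower was 1, and 0 with RLE, no filter, pan-T scaling, only the groups compared and DESeq2, and 0 to 1 with 1 library left out. For the deletion in tumor the number higher was 2, and 3 with pan-T scaling, 1 with the replicate block, 1 with only the groups compared and 0 to 2 with 1 library left out. The number lower was 6, and 0 with pan-T scaling, 5 with only the groups compared and 5 to 6 with 1 library left out. In the interaction the number higher was 0, and 3 with pan-T scaling; the number lower was 3, and 0 with pan-T scaling, 5 with DESeq2, 4 with GC offsets and 0 to 4 with 1 library left out. An arm left with 1 library was taken to vary like the other groups.

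Same-numbered libraries of LN and tumor correlated by 0.02 to 0.05 in their deviations from the group means, and each correlated best with its own number. In groups of 2 the deviations mirror each other, so MHCII-deleted mice give 1 value (0.035). These values do not settle whether libraries were paired, and the main fit treats them as unpaired. The replicate block also joins same-numbered libraries of the 2 genotypes (-0.15 to -0.05), so it does not test pairing of LN with tumor. The replicate block called 4 and 1 of the genes in MHCII-deleted mice (Tbx21 at 1.09 and Ifngr2 at 0.54 lost), 1 and 5 for the deletion in tumor (Eomes at 2.70 and Il12rb1 at -0.89 lost) and 2 in the interaction (Ifng at -1.56 lost).

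Signs turned with pan-T scaling in control mice for Ifngr2 (0.008), in MHCII-deleted mice for Stat4 (0.82) and Runx3 (1.05; with 1 library left out -0.45 to 0.15, the latter without tumor MHCII-deleted library 1), for the deletion in tumor for Il12rb1 (0.20), Il12rb2 (0.65; with 1 library left out -0.77 to 0.085, the latter without tumor control library 1), Stat4 (0.45), Ifngr1 (0.19) and Runx3 (0.27), and in the interaction for Il12rb1 (0.41), Stat4 (0.54) and Ifngr1 (0.37). With 1 library left out, Il12rb2 ranged from -0.13 (without tumor control library 2) to 0.73 in the interaction. In LN, where 0 were called, Tbx21 turned with GC offsets (-0.12), and with 1 library left out the values that turned ranged from -0.12 to 0.22 for Tbx21 (turned without MHCII-deleted library 2), -0.21 to 0.39 for Ifng (control 2, MHCII-deleted 1), -0.87 to 0.25 for Il12rb1 (MHCII-deleted 1), -0.15 to 0.009 for Stat4 (control 2) and -0.20 to 0.33 for Ifngr2 (control 1, MHCII-deleted 1). The pan-T turns follow from that scaling, which moved the median of all genes from 0.10 to 1.22 for the deletion in tumor; the cause of the others was not tested. Depth limits Eomes, with 5 to 83 counts per library.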
